A study of Mus musculus with 25 samples.

Results

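Open chromatin was described at 8 integrin genes (Itga1, Itga4, Itgae, Itgal, Itgav, Itgb1, Itgb2 and Itgb7) and at Cd44 in allospecific CD8+ T cells of mice. A peak of the deposited count table was taken for a gene when that gene had the nearest protein-coding start site to the peak's midpoint, or when the midpoint lay in its gene body (GENCODE vM39, genome build GRCm39). By this rule 29 of 13527 peaks were members, with 8 at Cd44, 7 at Itga4, 4 at Itga1, 3 at Itgal, 2 each at Itgb1 and Itgb2, and 1 each at Itgae, Itgav and Itgb7. Nearness does not show that a peak acts on the gene it is named for. Peaks are called here by gene and by the distance of the midpoint from the gene start in kb, with a minus sign for upstream.

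Integrins are cell surface receptors made of an alpha and a beta chain that bind matrix proteins or receptors on other cells, and T cells use them to roll, stop, cross vessel walls and stay in tissues. Which alpha chain a T cell displays sets which ligand it can hold, and the chains are known to change as naive cells become effector and memory cells. CD44 is a receptor for hyaluronan, a sugar polymer of the matrix, and high CD44 on the surface is the usual mark of a T cell that has met its antigen.

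ATAC-seq, which counts where a transposase can cut DNA, was run on CD8+ T cells from spleen and lymph nodes of C57BL/6 females, bought at 8 to 12 weeks of age and sorted with a tetramer that binds cells specific for an OVA peptide of the paternal strain. In the 3 Naive libraries the mice had had no treatment, and in the 4 Sensitized libraries they had rejected a skin graft of the fully mismatched paternal strain (2W-OVA.BALB/c). In the N+P groups untreated mice, and in the S+P groups grafted mice, went through a semi-allogeneic pregnancy by a male of that strain, and cells taken after birth were split by 2 surface proteins, the inhibitory receptor PD1 and the enzyme CD73. N+P C1 (PD1-, 3 libraries) and N+P C5 (PD1+CD73+, 3 libraries) came from the former, and S+P C4 (PD1-), S+P C5 (PD1+CD73+) and S+P C7 (PD1+CD73-), with 4 libraries each, from the latter. The labels give no PD1 or CD73 gate for Naive and Sensitized cells. A comparison of a C1, C4, C5 or C7 subset with them holds the pregnancy and the gate together, and both cannot be told apart. S+P mice were mated after graft rejection and sampled after birth, so time since the graft can also differ from Sensitized. The OVA came from a transgene of the paternal strain under an actin promoter, and cells specific for other paternal antigens were not followed.

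The groups differed most at peaks of Itga1, Itga4, Itgb1 and Cd44, less at Itgae and Itgal, and least at Itgav, Itgb2 and Itgb7, where group means differed by at most 1.45-fold. In Sensitized cells 11 of the 29 peaks were called more open than in Naive cells (37.9%, where 7.22% of all peaks were called higher and 8.62% in either direction). They lay at Itga1, Itga4, Itgb1 and Cd44, and none was a promoter peak. The Cd44 promoter was also called when Sensitized 3 and 4, the 2 lower Sensitized libraries at the 11 peaks, were left out. The largest differences were 3 peaks at the start of Itga1, a peak 189.8 kb upstream of Itga4, a peak 135.5 kb upstream of Itgb1 and a peak 55.3 kb upstream of Cd44. S+P C5 cells were more open than Sensitized cells at 2 of the peaks upstream of Cd44, and 1 of these calls was lost without those libraries. These 2 are 6.90% of the 29, where 6.74% of all peaks were called and 3.08% called higher. In pregnant mice that had had no graft 0 of 29 were called against Naive, where the background was 0.0205% for N+P C1 and 0.0262% for N+P C5. DESeq2's filter on low counts left only 7 and 4 of the 29 with an adjusted p there. With the filter off, the Cd44 peak at -55.3 kb was called in N+P C5, where 24 of all 13527 peaks were called.

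The sequences of the leading peaks, those with the smallest likelihood ratio p over the 7 groups, are shown for 6 genes because the values below rest on them. Each run is the middle 300 bases of a peak on the plus strand of GRCm39, 5′ to 3′, and capitals mark a match to 1 of 7 motifs of 7 letters searched on both strands: AP-1 (TGANTCA), RUNX (TGTGGTT), T-box (GGTGTGA), TCF/LEF (CTTTGAT), ETS (CCGGAAG), NFAT (TGGAAAA) and KLF (CACACCC).
Cd44 -55.3 kb, chr2:102787141-102787440: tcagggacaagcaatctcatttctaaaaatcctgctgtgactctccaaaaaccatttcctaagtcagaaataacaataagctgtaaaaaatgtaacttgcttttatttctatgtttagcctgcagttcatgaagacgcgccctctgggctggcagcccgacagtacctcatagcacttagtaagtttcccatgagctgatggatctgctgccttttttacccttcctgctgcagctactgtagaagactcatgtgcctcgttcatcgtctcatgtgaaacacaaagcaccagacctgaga
Itga1 +5.0 kb, chr13:115233507-115233806: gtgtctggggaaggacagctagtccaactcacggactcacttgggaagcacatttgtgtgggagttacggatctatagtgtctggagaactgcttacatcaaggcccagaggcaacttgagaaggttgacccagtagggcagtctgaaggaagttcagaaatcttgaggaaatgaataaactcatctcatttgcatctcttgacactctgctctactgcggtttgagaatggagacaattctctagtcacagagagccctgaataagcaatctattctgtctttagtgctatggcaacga
Itga4 -189.8 kb, chr2:78895703-78896002: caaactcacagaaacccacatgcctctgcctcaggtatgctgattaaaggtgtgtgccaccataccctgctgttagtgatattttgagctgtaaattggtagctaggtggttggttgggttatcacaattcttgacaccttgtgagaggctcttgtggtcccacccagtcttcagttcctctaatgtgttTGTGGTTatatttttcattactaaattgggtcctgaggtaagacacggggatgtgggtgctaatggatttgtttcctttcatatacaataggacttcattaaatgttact
Itgb1 -135.5 kb, chr8:129276266-129276565: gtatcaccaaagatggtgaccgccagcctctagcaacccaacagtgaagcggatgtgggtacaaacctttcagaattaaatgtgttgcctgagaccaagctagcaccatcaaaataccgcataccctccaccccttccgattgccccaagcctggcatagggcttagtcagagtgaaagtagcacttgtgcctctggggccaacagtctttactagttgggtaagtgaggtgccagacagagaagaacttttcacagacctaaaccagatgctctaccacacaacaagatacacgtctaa
Itgae +4.0 kb, chr11:72985301-72985600: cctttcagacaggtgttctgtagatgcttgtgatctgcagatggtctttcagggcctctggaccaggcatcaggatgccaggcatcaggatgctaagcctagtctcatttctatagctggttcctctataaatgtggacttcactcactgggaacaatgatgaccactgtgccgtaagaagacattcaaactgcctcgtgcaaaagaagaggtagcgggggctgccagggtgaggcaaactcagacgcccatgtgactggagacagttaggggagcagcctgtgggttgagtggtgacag
Itgal -8.1 kb, chr7:126887209-126887508: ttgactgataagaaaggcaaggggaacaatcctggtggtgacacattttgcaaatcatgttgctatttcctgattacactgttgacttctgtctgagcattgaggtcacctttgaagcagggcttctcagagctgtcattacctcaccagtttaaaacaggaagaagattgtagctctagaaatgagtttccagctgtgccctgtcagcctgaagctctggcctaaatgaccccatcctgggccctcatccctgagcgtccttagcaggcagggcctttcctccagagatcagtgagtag
Only the Itga4 window of these 6 held a match, a RUNX match on the plus strand. The leading Itgav peak is its promoter and overlaps an untranslated exon, so it is not shown.

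Of the 29 middle windows, 3 held an AP-1 match, and all 3 belong to peaks that were more open in Sensitized than in Naive cells. They are shown as 100 bases around the match, which is in capitals, chosen after the matches were known.
Cd44 -46.9 kb, chr2:102778979-102779078: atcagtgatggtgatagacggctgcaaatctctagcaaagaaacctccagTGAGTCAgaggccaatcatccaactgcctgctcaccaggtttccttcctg
Itga1 -5.5 kb, chr13:115244118-115244217: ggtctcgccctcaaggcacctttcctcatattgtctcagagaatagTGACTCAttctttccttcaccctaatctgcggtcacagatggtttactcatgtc
Itga4 -130.8 kb, chr2:78954787-78954886: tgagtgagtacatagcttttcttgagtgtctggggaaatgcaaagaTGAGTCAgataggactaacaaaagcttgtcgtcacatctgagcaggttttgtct
The AP-1 letters stood in 10.3% of the member windows and in 9.16% of all 13527 windows, in 15.8% of all windows outside promoters and in 27.5% of the 977 windows that opened from Naive to Sensitized, against 3 of 11 opened member windows. RUNX letters stood in 7 member windows (24.1%, against 10.8% of all), T-box letters in 4 (13.8% against 5.13%), NFAT letters in 4 (13.8% against 4.87%), KLF letters in 3 (10.3% against 9.16%), ETS letters in 2 (6.90% against 12.7%) and TCF/LEF letters in 0 (against 4.06%). Peaks outside promoters are 22 of the 29 members but 5857 of all 13527, and the shares differ by class. In the 22 windows outside promoters AP-1, T-box and NFAT letters stood in 3 each, where 15.8%, 7.72% and 7.29% of all such windows held them. RUNX letters stood in 6 of the 22 (20.1% of all), KLF letters in 2 (11.1%), and ETS and TCF/LEF letters in 0 (4.73% and 7.21%). A T-box match on the minus strand reads TCACACC and can overlap a KLF match. Median GC content of the windows was 45.3% in the 22 member peaks outside promoters and 48.7% in all peaks outside promoters.

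The libraries held between 2430890 and 25419715 counts in peaks (median 8197552). Promoter peaks of 5 of 6 CD8 T cell markers were counted (all but Thy1), with summed normalized counts of 1738 to 2496 per library over the 25 libraries, and no counted promoter peak belonged to a CD4 T (0 of 2), B (0 of 5), myeloid (0 of 5) or NK cell marker (0 of 2). Over all peaks, 10 of the 25 libraries correlated better with the mean log2 values of another group than with the other libraries of their own. Among them were Sensitized 3 and 4 (r = 0.973 and 0.955 with N+P C5, against 0.918 and 0.937 with their own group), Sensitized 1 (0.931 with S+P C4 against 0.868), S+P C4 1 (0.923 with N+P C5 against 0.869) and Naive 3 (0.988 with N+P C1 against 0.970). At each of the 11 opened peaks the mean of Sensitized 3 and 4 was below that of Sensitized 1 and 2. Without Sensitized 3 and 4 all 11 calls against Naive were kept, with log2 fold changes of 1.34 to 5.72, and 3 were gained (the Cd44 promoter, Itga4 +11.4 kb and, lower, Itgae +4.0 kb). Leaving out the lower libraries raises the folds at the 11 peaks, so this is no test of those calls. Sensitized 1 and 2 were not left out together. Against Sensitized, 9 peaks had an adjusted p under 0.1 in S+P C5 (31.0%, against 32.9% of all peaks) and 10 in the PD1+CD73- subset (34.5% against 52.9%). Of these, 2 kept it in each comparison when these libraries were left out. Some that lost it in S+P C5 had log2 fold changes of about the same size, with 0.47 and then 0.55 at the Cd44 peak at +34 kb and 0.59 and then 0.53 at Itga4 -27.4 kb. Each library holds many cells, so more cells with an open site and a more open site per cell cannot be told apart.

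To be called, a peak needed a DESeq2 adjusted p, over all peaks, under 0.1 and a log2 fold change beyond 0.9 in either direction. Values below are normalized counts (reads per peak divided by DESeq2's size factor of the library), listed by replicate number, fold changes are given with their standard error, and adjusted p values are from DESeq2's Wald test unless another test is named. Over the 7 groups together, the likelihood ratio test with a range of group means over 0.9 on the log2 scale called 15 of the 29 peaks, against a background of 27.7% of all peaks. All 15 lay outside promoters, 15 of 22 against 54.3% of all such peaks, and 0 of 7 promoter peaks were called against 7.35%. The ratio of the highest to the lowest group mean was 1.18 to 1.86 in the 7 promoter peaks, with a median of 1.45, and 1.2 to 60.1 in the other 22, with a median of 2.76, while the medians over all peaks were 1.33 in promoters and 2.00 outside.

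**Figure D1:**
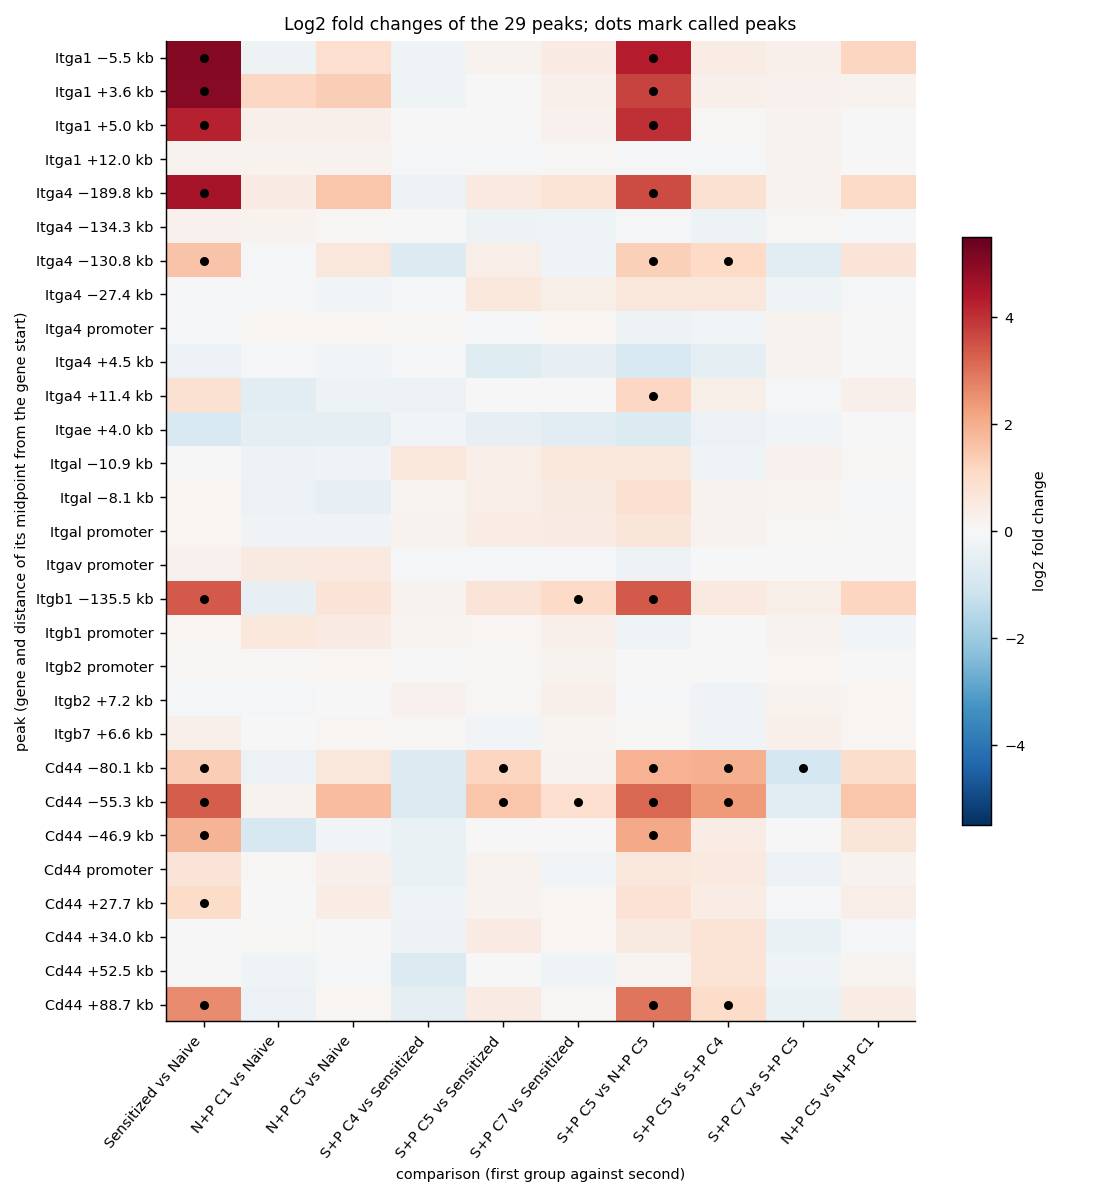
Log2 fold changes (colour, red for higher in the group named first) of the 29 peaks in 10 comparisons, with dots for called peaks. The columns of Sensitized against Naive and of S+P C5 against N+P C5 hold 11 dots each, and the rows of the promoter peaks hold none.

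Itga1 encodes the alpha 1 chain, which pairs with beta 1 to make a receptor for collagen that marks many T cells resident in tissues. No counted peak lay within 1000 bp of its start, and 3 peaks flanked it at -5.5, +3.6 and +5.0 kb, the last 2 in an intron (chr13:115233393-115233919 for the +5.0 kb peak). The intronic peaks were nearest to the start of Gm49395, an overlapping gene model, and belong here through the Itga1 gene body.
At +5.0 kb the counts were 8.27, 20.7 and 14.5 in Naive, 17.7, 17.9 and 17 in N+P C1 and 18.1, 17.8 and 18 in N+P C5. They were 350, 510, 106 and 155 in Sensitized, 112, 289, 362 and 326 in S+P C4 cells, 228, 256, 358 and 309 in S+P C5, with 250, 274, 404 and 405 in S+P C7. The 9 libraries of ungrafted mice all lay below the 16 libraries of grafted mice, with no overlap, while the 4 grafted groups overlapped each other and so did the 3 ungrafted ones. Sensitized exceeded Naive (log2 fold change 4.25 ± 0.46, adjusted p = 1.23e-17), and S+P C5 exceeded N+P C5 (log2 fold change 4.00 ± 0.46, adjusted p = 3.57e-16). With loess offsets, a scaling that varies with the count, in place of size factors, both were called with smaller log2 fold changes of 3.31 and 2.40. S+P C5 and Sensitized were not separated (log2 fold change 0.04 ± 0.38, adjusted p = 0.95), with a 95% interval of -0.70 to 0.78. Without Sensitized 3 and 4 the difference was lower and again did not pass (log2 fold change -0.58 ± 0.33, adjusted p = 0.316).

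The +3.6 kb and -5.5 kb peaks of Itga1 showed the same split between grafted and ungrafted libraries. At +3.6 kb the counts were 13.8, 15.7 and 14.5 in Naive and 601, 904, 151 and 232 in Sensitized (log2 fold change 5.0 ± 0.50, adjusted p = 1.9e-20). In the pregnant groups they were 15.5, 35.9 and 49 in N+P C1, 43.3, 35.6 and 32.5 in N+P C5 and 333, 589, 596 and 419 in S+P C5 (log2 fold change 3.70 ± 0.48, adjusted p = 3.71e-13; 2.93 with loess offsets). Every N+P C5 library was above every Naive one (log2 fold change 1.34 ± 0.55), a difference that received no adjusted p. In a fit of the compared groups only it was called (log2 fold change 1.33, adjusted p = 0.0593), where 65 of all peaks were called. Over the PD1- and the PD1+CD73- cells of grafted mice, the lowest of the 8 libraries had 153 and the highest 696, so all were far above the N+P groups.
At -5.5 kb, between genes, the counts were 5.51, 15.7 and 1.26 in Naive, 6.64, 10.1 and 0 in N+P C1 and 14.1, 17.8 and 9.62 in N+P C5. They were 344, 414, 86 and 127 in Sensitized and 275, 328, 276 and 224 in S+P C5 (log2 fold change 5.06 ± 0.63, adjusted p = 1.42e-13 against Naive for Sensitized). The Naive counts behind this fold were low, with 4, 16 and 2 reads before scaling. The log2 fold change was 6.39 without Naive replicate 2, 4.47 without Naive replicate 3 and 3.60 with loess offsets, which also gave 1.94 in place of 4.32 ± 0.60 for S+P C5 against N+P C5. The fourth peak in the Itga1 body, at +12.0 kb, is the promoter of Pelo, a gene for a ribosome rescue factor, and its group means stayed between 838 and 1014.

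**Figure D2:**
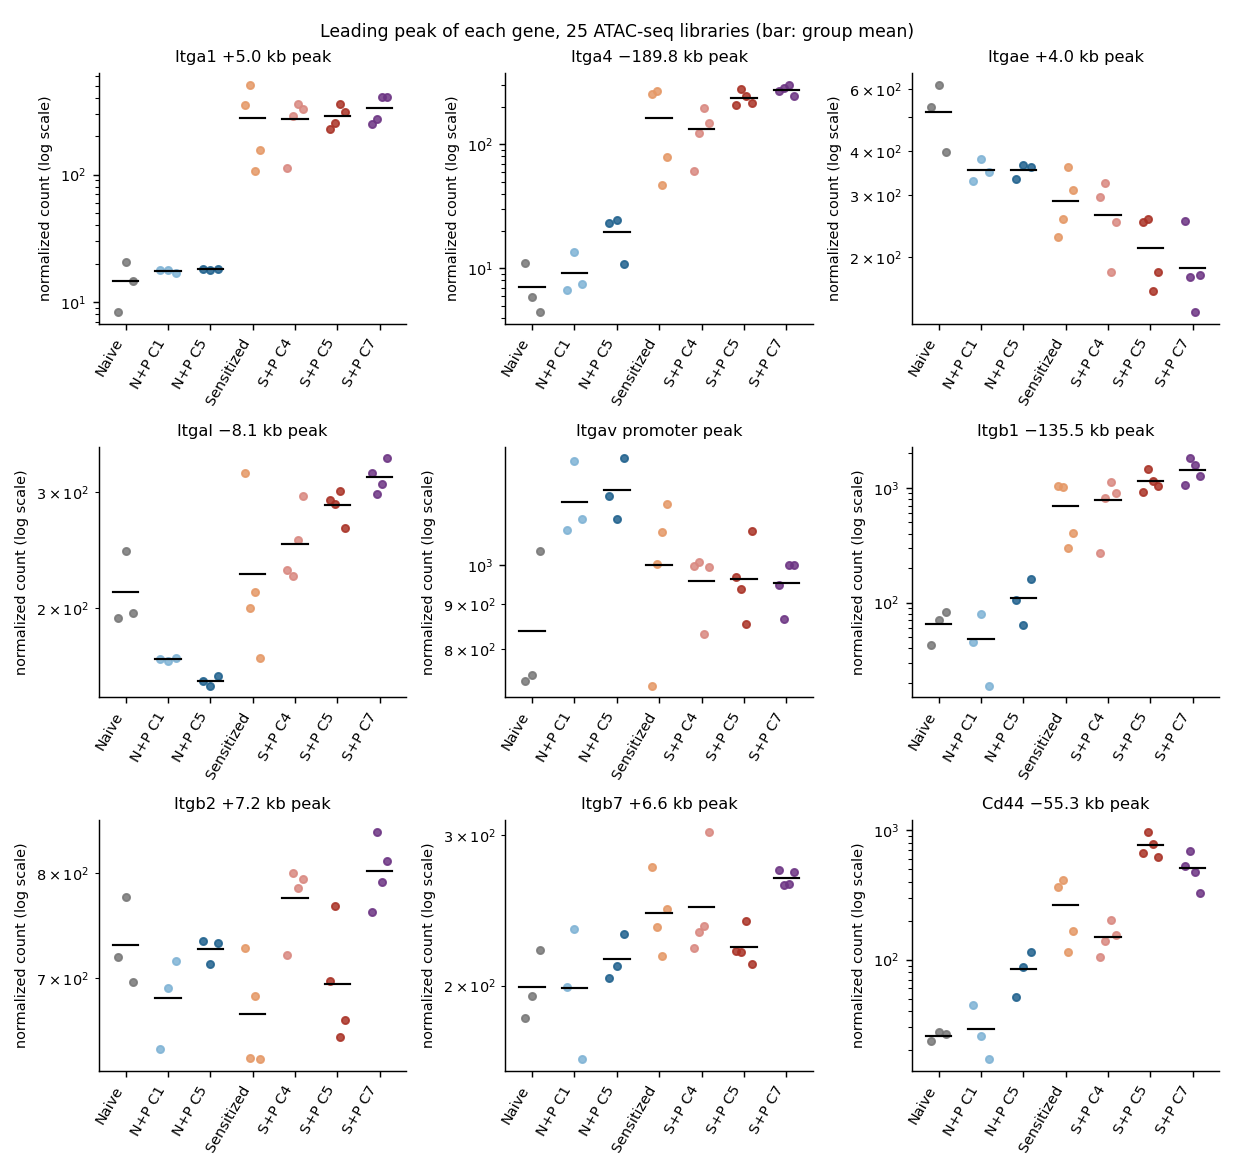
Normalized counts (log axis) of the leading peak of each of the 9 genes in the 25 libraries by group, with a bar at the group mean. At the Itga1, Itga4 and Itgb1 peaks every library of the 4 grafted groups lies above every library of the 3 ungrafted groups, and at the Itgae peak the Naive libraries lie above all others.

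Itga4 encodes the alpha 4 chain, which with beta 1 binds VCAM-1 and fibronectin on inflamed endothelium and with beta 7 binds MAdCAM-1 in the gut. Its leading peak lay 189.8 kb upstream, between genes (chr2:78895678-78896026), with Ube2e3 as the next gene on the other side, 134.8 kb away. The counts were 11, 5.9 and 4.42 in Naive, 6.64, 13.5 and 7.54 in N+P C1 and 23.1, 24.7 and 10.8 in N+P C5. They were 256, 268, 47 and 78.6 in Sensitized, 61.2, 123, 198 and 150 in S+P C4 cells, 208, 280, 246 and 214 in S+P C5, with 267, 284, 303 and 243 in S+P C7. The ungrafted and the grafted libraries again did not overlap, and within each kind the neighbouring groups did. Sensitized exceeded Naive (log2 fold change 4.59 ± 0.55, adjusted p = 1.61e-14) and S+P C5 exceeded N+P C5 (log2 fold change 3.60 ± 0.50, adjusted p = 1.44e-11). With loess offsets both were called, with log2 fold changes of 3.02 and 1.13 (adjusted p = 0.0218 for the latter).

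The Itga4 -130.8 kb peak was called both in Sensitized against Naive (log2 fold change 1.56 ± 0.29, adjusted p = 1.35e-06) and in S+P C5 against S+P C4. Its counts were 48.2, 51.1 and 84.5 in Naive, 256, 235, 124 and 121 in Sensitized, 91.9, 114, 108 and 116 in S+P C4, with 232, 240, 233 and 234 in S+P C5. The S+P C5 libraries, from 232 to 240, lay above all of S+P C4 (log2 fold change 1.11 ± 0.26, adjusted p = 0.000695), at the level of Sensitized 1 and 2. This peak was counted only through the peak list of S+P C5, so selection favoured a high value in that group. S+P C7 had 137, 138, 217 and 133, below S+P C5 in all 4 libraries, a difference that was not called (log2 fold change -0.59 ± 0.25, adjusted p = 0.161). With loess offsets, its calls in Sensitized against Naive, S+P C5 against N+P C5 and S+P C5 against S+P C4 were lost, with log2 fold changes of 0.86, 0.01 and 0.61.

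Not all Itga4 peaks opened. The intronic peak at +4.5 kb ran the other way, with 574, 504 and 432 in Naive, 378, 381, 431 and 404 in Sensitized, 278, 207, 273 and 245 in S+P C5 and 386, 469 and 516 in N+P C5. Every S+P C5 library was below every Sensitized library, and the fall passed the test but not the fold threshold (log2 fold change -0.66 ± 0.14, adjusted p = 0.000121). The intronic peak at +11.4 kb was higher in S+P C5 (233, 334, 300 and 299) than in N+P C5 (99.6, 152 and 141), a called difference (log2 fold change 1.16 ± 0.26, adjusted p = 6.31e-05) that was lost with loess offsets (log2 fold change 0.81). In Sensitized against Naive it was not called with all libraries, and was called without Sensitized 3, 4 or both (for both, log2 fold change 1.19 ± 0.26, adjusted p = 4.88e-05; with all libraries, 0.84 ± 0.26). The Itga4 promoter, read at 521 normalized counts per kb in Naive, had group means between 1035 and 1279 and its mean was slightly lower in S+P C5 than in N+P C5, with overlapping libraries (log2 fold change -0.28 ± 0.09, adjusted p = 0.00351).

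Itgb1 encodes beta 1, the partner chain of alpha 1 and alpha 4. Its leading peak lay 135.5 kb upstream (chr8:129275766-129277064) in the stretch between Nrp1, whose end is 45.3 kb away, and Itgb1. The counts were 42.7, 70.8 and 83.3 in Naive, 45.4, 79.6 and 18.8 in N+P C1 and 105, 64.4 and 160 in N+P C5. They were 1041, 1018, 302 and 402 in Sensitized, 272, 809, 1134 and 905 in S+P C4 cells, 914, 1476, 1146 and 1045 in S+P C5, with 1053, 1816, 1594 and 1259 in S+P C7. No ungrafted library exceeded 160 and no grafted one was under 272. Sensitized exceeded Naive (log2 fold change 3.39 ± 0.50, adjusted p = 7.68e-10) and S+P C5 exceeded N+P C5 (log2 fold change 3.38 ± 0.50, adjusted p = 2.5e-10).

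S+P C7 also exceeded Sensitized at this peak, with 1053 as its lowest library against 1041 as the highest of Sensitized (log2 fold change 1.05 ± 0.45, adjusted p = 0.0475). This call was lost without Sensitized 3 and 4 (log2 fold change 0.48 ± 0.48, adjusted p = 0.528), without either of them alone and without S+P C7 replicate 2 or 3. The Itgb1 promoter had 411, 450 and 580 in Naive and 698, 732 and 731 in N+P C1, with no overlap and an adjusted p of 0.0548 when DESeq2's filter on low counts was off (with the filter it received none), a log2 fold change of 0.58 ± 0.15 that is under the fold threshold.

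Itgal and Itgb2 encode the 2 chains of LFA-1, which binds ICAM-1 on endothelium and on antigen-presenting cells, and naive T cells already carry it. At Itgal no peak was called in any of the 10 comparisons of groups, and the steps between groups were small. The -8.1 kb peak had 193, 244 and 196 in Naive, 167, 166 and 168 in N+P C1 and 155, 152 and 158 in N+P C5. It had 320, 200, 212 and 168 in Sensitized, 228, 223, 253 and 296 in S+P C4 cells, 291, 288, 301 and 264 in S+P C5, with 321, 298, 308 and 338 in S+P C7. The N+P libraries were all below Naive and those of S+P C5 and S+P C7 were all above it, while Sensitized overlapped Naive. S+P C5 exceeded N+P C5 with 0.89 ± 0.18 on the log2 scale (adjusted p = 6.49e-06), just under the fold threshold (it was called with total counts as the scaling and without S+P C5 replicate 4), and the Itgal promoter followed with 0.66 ± 0.16 (adjusted p = 0.00022). The promoter libraries were 248, 289 and 256 in N+P C5 and 377, 439, 442 and 418 in S+P C5, with no overlap.

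Whether the step from the non-pregnant to the C5 state differed between grafted and ungrafted mice was tested by an interaction. At the Itgal -8.1 kb peak this value, the S+P C5 to Sensitized difference minus the N+P C5 to Naive difference, was 0.79 ± 0.25 on the log2 scale (adjusted p = 0.0186), and at the Itgal promoter it was 0.57 ± 0.23 (adjusted p = 0.0587). The 2 differences behind these values were -0.45 ± 0.19 and -0.18 ± 0.18 for N+P C5 against Naive, which received no adjusted p, and 0.35 ± 0.16 and 0.39 ± 0.15 for S+P C5 against Sensitized. Both tests were lost without Sensitized 3 and 4 (log2 fold change 0.58 ± 0.24, adjusted p = 0.153 at -8.1 kb and log2 fold change 0.40 ± 0.24, adjusted p = 0.31 at the promoter), and so were those of S+P C5 against Sensitized at the same peaks (log2 fold change 0.13 ± 0.17, adjusted p = 0.73, and log2 fold change 0.22 ± 0.17, adjusted p = 0.502). Without Sensitized replicate 1, the highest Sensitized library at -8.1 kb, the interaction there was called (log2 fold change 1.02, adjusted p = 7.99e-06). That fit called 1623 of all peaks. With all libraries, 0 of the 29 peaks passed both thresholds in this interaction, against a background of 5.97% of all peaks, and 6 passed the adjusted p alone (20.7%, against 31.2% of all peaks). None of these 6 passed without Sensitized 3 and 4, though some differences kept about their size on the log2 scale, with 0.73 ± 0.29 and then 0.67 ± 0.32 at Itga4 -27.4 kb. At that setting 2 other peaks were called (background 2.36%), Itga1 +3.6 kb (log2 fold change -1.97 ± 0.57, adjusted p = 0.0309) and Itga4 -189.8 kb (log2 fold change -1.73 ± 0.54, adjusted p = 0.0495). The Itgb2 peaks were flat: the promoter stayed between 589 and 743 and the +7.2 kb intronic peak between 632 and 843 in all 25 libraries. Small differences at the +7.2 kb peak still passed the test, such as S+P C7 over S+P C5 (log2 fold change 0.21 ± 0.07, adjusted p = 0.04).

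Itgae encodes alpha E (CD103), which with beta 7 binds E-cadherin on epithelial cells, and naive CD8 T cells of mice are known to express it. It was the 1 gene of the 9 whose only peak, in an intron at +4.0 kb (chr11:72985080-72985821), was most open in Naive cells. The counts were 532, 617 and 398 in Naive, 329, 379 and 349 in N+P C1 and 332, 365 and 361 in N+P C5. They were 227, 257, 359 and 309 in Sensitized, 296, 323, 181 and 252 in S+P C4 cells, 250, 256, 160 and 181 in S+P C5, with 253, 175, 139 and 177 in S+P C7. Every library of the other 6 groups was below every Naive library. The peak entered the counted set through the peak list of Naive alone, so selection favoured this order. Sensitized was lower than Naive with -0.84 ± 0.22 on the log2 scale (adjusted p = 0.0019), short of the fold threshold, and without Sensitized 3 and 4 it was called (log2 fold change -1.09 ± 0.25, adjusted p = 0.000124), as it was without Sensitized replicate 3 or Naive replicate 3 alone. S+P C5 was lower than N+P C5 with -0.74 ± 0.22 (adjusted p = 0.0032). Itgb7, which encodes the beta 7 partner, had 1 intronic peak at +6.6 kb with 164 to 303 counts in the 25 libraries, and 0 of 10 comparisons of groups called it.

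Itgav encodes alpha v, which binds proteins with an RGD motif and frees latent TGF-beta. Its 1 peak was the promoter, with 734, 746 and 1037 in Naive, 1097, 1317 and 1130 in N+P C1, 1199, 1128 and 1327 in N+P C5 and 725, 1001, 1091 and 1176 in Sensitized. All N+P libraries were above all Naive ones (log2 fold change 0.53 ± 0.15, adjusted p = 0.0444 for N+P C5), though 1 Naive library was close and the change was below the fold threshold. S+P C5 ran from 854 to 1095, inside the range of Sensitized, and the interaction was -0.58 ± 0.20 on the log2 scale (adjusted p = 0.0303). It no longer passed without Sensitized 3 and 4 (log2 fold change -0.37 ± 0.20, adjusted p = 0.272).

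The Cd44 locus held 8 peaks, and the group means of its promoter ranged less than those of 5 of the other 7. The promoter counts were 135, 175 and 191 in Naive, 317, 324, 224 and 229 in Sensitized and 265, 288, 335 and 353 in S+P C5. No Naive library reached the lowest Sensitized one, and the rise passed the test but not the fold threshold (log2 fold change 0.70 ± 0.18, adjusted p = 0.00119). The promoter was called without Sensitized 3 and 4 (log2 fold change 0.92 ± 0.19, adjusted p = 7.04e-06).
The leading peak lay at -55.3 kb, between Cd44 and Pdhx (chr2:102786775-102787805), and had the smallest likelihood ratio p of the 29 peaks. The counts were 23.4, 27.5 and 26.5 in Naive, 44.2, 25.8 and 17 in N+P C1 and 51.3, 87.7 and 114 in N+P C5. They were 361, 412, 115 and 167 in Sensitized, 105, 140, 201 and 154 in S+P C4 cells, 661, 972, 787 and 622 in S+P C5, with 532, 693, 477 and 325 in S+P C7. Here the PD1+CD73+ cells of grafted mice stood above all Sensitized and S+P C4 libraries, and overlapped only with S+P C7. Sensitized exceeded Naive (log2 fold change 3.35 ± 0.39, adjusted p = 5.39e-15), S+P C5 exceeded Sensitized (log2 fold change 1.53 ± 0.33, adjusted p = 0.00014) and S+P C5 exceeded S+P C4 (log2 fold change 2.33 ± 0.34, adjusted p = 2.31e-09). Without Sensitized 3 and 4 the rise from Sensitized to S+P C5 was smaller and still called (log2 fold change 0.98 ± 0.30, adjusted p = 0.0194).

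**Figure D3:**
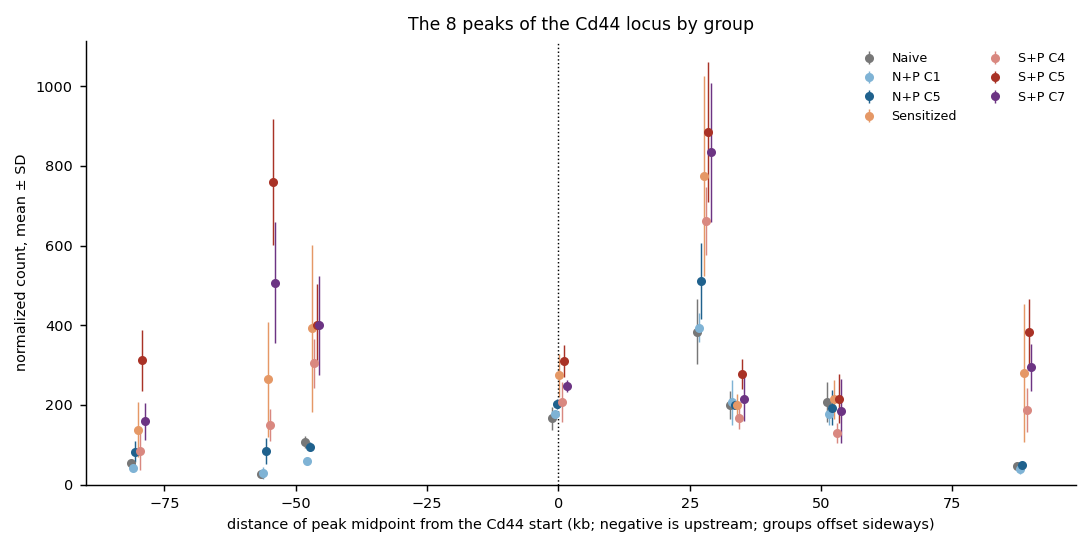
Normalized counts (mean ± SD, 3 or 4 libraries a group) of the 8 Cd44 peaks against the distance of their midpoints from the Cd44 start in kb. In counts, the S+P C5 group has its largest gap over the other groups at -55.3 kb, with a mean of 760 against 507 in S+P C7 and 25.8 in Naive. The S+P C5 and S+P C7 libraries overlap there, but not at -80.1 kb. At the promoter the group means lie between 167 and 310.

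Among ungrafted mice the Cd44 -55.3 kb peak was higher in every N+P C5 library than in the other groups. All 3 N+P C5 libraries were above the 3 Naive ones and above the 3 N+P C1 ones, in which the highest had 44.2. DESeq2's filter on low counts gave this peak no adjusted p in N+P C5 against Naive, and with the filter off it was called (1.70 ± 0.43 on the log2 scale, adjusted p = 0.0338). Against N+P C1 it was not called (log2 fold change 1.51 ± 0.43, adjusted p = 0.702). The level in N+P C5 stayed far below that of S+P C5 (log2 fold change 3.17 ± 0.37, adjusted p = 1.42e-15; 2.35 with loess offsets).

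The Cd44 -80.1 kb peak had 49.6, 56.1 and 54.3 in Naive, 213, 177, 57.3 and 107 in Sensitized, 157, 66.2, 63.7 and 52 in S+P C4 cells, 250, 415, 258 and 325 in S+P C5, with 131, 228, 138 and 139 in S+P C7. S+P C5 was above all libraries of the other 3 grafted groups. The peak entered the counted set through the peak list of S+P C5 alone, so selection favoured this order and the tests that follow. S+P C5 exceeded Sensitized (log2 fold change 1.17 ± 0.35, adjusted p = 0.0073) and S+P C4 (log2 fold change 1.94 ± 0.36, adjusted p = 4.64e-06), and S+P C7 was lower than S+P C5 (log2 fold change -0.98 ± 0.35, adjusted p = 0.072). The first of these calls was lost without Sensitized 3 and 4 (log2 fold change 0.68 ± 0.34, adjusted p = 0.235) and with loess offsets, and the last was lost in 7 of 15 alternatives, edgeR among them. The rise over S+P C4 was called with loess offsets at a log2 fold change of 1.35. With loess offsets this peak was also not called in Sensitized against Naive (log2 fold change 0.49, adjusted p = 0.305) nor in S+P C5 against N+P C5 (log2 fold change 0.36, adjusted p = 0.311).

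The other Cd44 peaks divided into 3 that opened with sensitization and 2 that did not. At +88.7 kb, in the last exon and its 3′ untranslated part, counts were 44.1, 39.3 and 56.2 in Naive and 418, 440, 111 and 149 in Sensitized (log2 fold change 2.58 ± 0.38, adjusted p = 1.05e-09). At -46.9 kb they were 95.1, 123 and 104 and 591, 552, 182 and 242 (log2 fold change 1.86 ± 0.34, adjusted p = 1.35e-06), and S+P C5 with 290, 474, 499 and 340 was close in mean to Sensitized (log2 fold change 0.03 ± 0.31, adjusted p = 0.95). It was lower without Sensitized 3 and 4, by a difference that did not pass (log2 fold change -0.52 ± 0.27, adjusted p = 0.275). At +27.7 kb, in an intron, the counts were 313, 367 and 473 and 901, 1061, 503 and 634 (log2 fold change 1.01 ± 0.22, adjusted p = 0.000114), a call that was lost without Naive replicate 1 or Sensitized replicate 2. The intronic peaks 34 and 52.5 kb downstream had overlapping counts in Naive and Sensitized, with log2 fold changes of -0.01 ± 0.21 and 0.04 ± 0.32.

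Reads were also set against each other within the locus, where no scaling between libraries enters, a measure chosen after the values were seen and given without a test. The -55.3 kb peak held 2.32, 2.35 and 1.9% of the reads of the 8 Cd44 peaks in Naive, 4.25, 2.17 and 1.5% in N+P C1 and 4.32, 5.62 and 7.61% in N+P C5. It held 11.6, 12, 7.19 and 8.33% in Sensitized and 6.5, 7.63, 9.31 and 7.88% in S+P C4. For PD1+CD73+ cells of grafted mice (S+P C5) the share was 21.5, 22.9, 20.8 and 20.2%, with 21.6, 21.7, 14.8 and 13.1% in S+P C7. Every S+P C5 and S+P C7 library was above the highest Sensitized library, and every N+P C5 library was above the highest Naive and N+P C1 libraries. Sensitized 3 and 4, with lower mean normalized counts than Sensitized 1 and 2 at the opened peaks, were also lower than both in this share. Their total counts in peaks were not low (14222268 and 15041041).

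**Figure D4:**
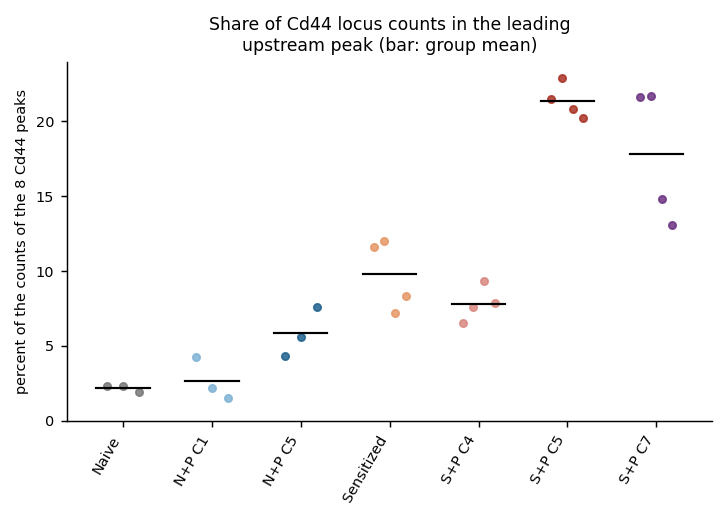
Percent of the reads of the 8 Cd44 peaks that lie in the -55.3 kb peak, for each of the 25 libraries, with a bar at the group mean. S+P C5 averages 21.3% and S+P C7 17.8%, above 9.78% in Sensitized, 7.83% in S+P C4 and 2.19% in Naive.

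Counted by comparison, sensitization called 11 of the 29 peaks, all higher, where 7.22% of all peaks were called higher and 8.62% in either direction, and 18.4% of all peaks outside promoters against 11 of 22 here. The median log2 fold change was 0.25 in the 29 peaks and -0.01 in all peaks. Without Sensitized 3 and 4 the count was 14 (48.3%), and the share of all peaks rose to 15.2%. S+P C5 against N+P C5 also called 11, all higher, against backgrounds of 10.3% higher and 17.2% in all, with a median of 0.62 against 0.00. Of the 29 peaks 20 did not overlap between these 2 groups, where 62.9% of all peaks did not.

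Within grafted mice, S+P C5 against Sensitized called 2 peaks, both upstream of Cd44 and both higher (background 6.74%, 3.08% higher). The PD1+CD73- cells (S+P C7) against Sensitized also had 2 calls, Cd44 -55.3 kb and Itgb1 -135.5 kb (background 11.9%, 3.84% higher). Each 2 of 29 is 6.90%, near or under the share called in either direction and above the share called higher. Without Sensitized 3 and 4 the calls fell to 1 (background 3.25%) and 0 (background 6.96%). The S+P C7 call at Cd44 -55.3 kb (log2 fold change 0.94 ± 0.34, adjusted p = 0.0149) was lost without Sensitized 3 and 4 (log2 fold change 0.39 ± 0.30, adjusted p = 0.383), without either of them alone, without S+P C7 replicate 2 and with loess offsets (log2 fold change 0.59, adjusted p = 0.104). Set against S+P C4, S+P C5 cells had 4 calls, all higher (background 5.12%, 3.12% higher): Cd44 -55.3, -80.1 and +88.7 kb and Itga4 -130.8 kb. The Cd44 +88.7 kb call (log2 fold change 1.00 ± 0.34, adjusted p = 0.0381) was lost with loess offsets and without S+P C4 replicate 1 or 2 or S+P C5 replicate 2. S+P C7 against S+P C5 called 1, Cd44 -80.1 kb, lower (background 2.38%, 2.11% lower).

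S+P C4, the PD1- cells, called 0 of 29 against Sensitized in DESeq2 and in edgeR (background 0.858%), with 7 at an unadjusted p under 0.05 (24.1%, against 18.7% of all peaks). Without Sensitized 3 and 4, 5 peaks were lower in S+P C4 (17.2%), namely Cd44 +88.7, -55.3 and -80.1 kb and Itga4 -189.8 and -130.8 kb. In that fit 1.38% of all peaks were called lower and 2.31% in either direction. Without S+P C4 replicate 1 and with all Sensitized libraries, 1 peak was called, Cd44 -80.1 kb (log2 fold change -1.20, adjusted p = 0.0163). In ungrafted mice DESeq2 and edgeR called 0 of the 29 peaks in each of 3 comparisons. In N+P C1 against Naive (background 0.0205%) 7 of 29 had an adjusted p, and 6 (20.7%) had an unadjusted p under 0.05, against 19% of all peaks. In N+P C5 against Naive (background 0.0262%) 4 had an adjusted p, and 8 (27.6%) had an unadjusted p under 0.05, against 17.5%. Between the N+P groups (background 0%) 4 (13.8%) had an unadjusted p under 0.05, against 2.28%. The comparisons share control groups, so their counts are not independent of each other.

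The deposited peak lists, 1 per group with the peaks that recurred in its libraries, were compared with the 29 peaks by an overlap of at least 1 base. They held 7 of the 29 (24.1%) in each of the 3 ungrafted groups, where 62.2 to 62.9% of all counted peaks were listed, and 16 (55.2%, against 71.1%) in Sensitized. The S+P C4 list held 4 (13.8%, against 27.0%), that of S+P C5 held 23 (79.3%, against 82.9%), and that of S+P C7 held 19 (65.5%, against 64.0%). With a q-value under 0.05 there was 1 in each list of a PD1+ subset of grafted mice and 0 in the other 5 lists. Between 6.87 and 28.8% of the peaks of a list had such a q-value. The Itga4 promoter, the Itgav promoter and the Pelo promoter were in all 7 lists. Of the 29, 5 were listed in S+P C5 alone, Cd44 -80.1, -46.9, +34 and +52.5 kb and Itga4 -130.8 kb, with the +52.5 kb peak at similar means in S+P C5 and Sensitized (216 and 214). The Cd44 -55.3 kb peak was in the lists of both PD1+ subsets of grafted mice, the Itgae peak in that of Naive alone and the Cd44 promoter in that of Sensitized alone. The counted peaks were merged from these lists, so selection favoured high values in the groups that list a peak. The lists ranged from 3788 peaks in S+P C4 to 11384 in S+P C5.

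Other genes of the pathway, chosen as 3 lists, were read through the peaks nearest to their starts. Of 19 other integrin subunits, 4 had a counted peak, 5 peaks in all, and 3 were called higher in Sensitized than in Naive with 0 lower (60%). None of the 5 is a promoter peak, and 18.4% of all peaks outside promoters were called. The largest was an intronic peak of Itga2, the alpha 2 collagen receptor chain and neighbour of Itga1 on chromosome 13, with 229 ± 143 in Sensitized (n = 4) against 10.3 ± 1.81 in Naive (n = 3; log2 fold change 4.46 ± 0.55, adjusted p = 4.74e-14). The same peak had 318 ± 102 in S+P C5 and 12.1 ± 2.2 in N+P C5 (log2 fold change 4.71 ± 0.55, adjusted p = 8.01e-16). Peaks nearest to Itgb6 (1.12 ± 0.31, adjusted p = 0.00348) and Itgax (1.06 ± 0.30, adjusted p = 0.00497) also rose with sensitization.

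Of 29 genes of integrin activation and linkage to actin, 21 had 66 peaks, and 4 rose and 2 fell from Naive to Sensitized (9.09%, near the background of 8.62%), with a median log2 fold change of -0.04. A peak 92.7 kb upstream of Rap1b, a small GTPase that switches integrins on, rose by 3.22 ± 0.45 on the log2 scale (adjusted p = 4.06e-11). In S+P C5 against Sensitized an intronic peak of Ptk2b, a kinase of focal adhesions, rose by 1.75 ± 0.35 (adjusted p = 2.39e-05) and a peak 78.6 kb upstream of Rasgrp1, an exchange factor for Ras, fell (-1.26 ± 0.35, adjusted p = 0.0033). Of 25 ligands and CD44 partners, 7 had 30 peaks, and 9 rose and 0 fell with sensitization (30%, against 8.62% of all peaks and 18.4% outside promoters, where 24 of the 30 lay). The 3 with the smallest adjusted p were all nearest to Cd47, a partner of alpha v integrins, the first with 860 ± 490 in Sensitized against 52.5 ± 10.2 in Naive (log2 fold change 4.03 ± 0.34, adjusted p = 5.02e-28). That peak also rose in N+P C5 against Naive (1.28 ± 0.37, adjusted p = 0.0456), and was the 1 peak called among all 3824 that received an adjusted p in this comparison. In S+P C5 against Sensitized 0 of the 30 rose and 2 fell (6.67%, against 6.74%), peaks 9.5 and 7.8 kb upstream of Cd47 (-0.99 ± 0.20, adjusted p = 1.91e-05, and -0.99 ± 0.23, adjusted p = 0.000499).

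The peaks outside the 9 genes whose log2(normalized count + 1) followed the leading peaks most closely were found by Pearson r over the 25 libraries, which share the grafted and ungrafted split and so are not independent. For Cd44 -55.3 kb they were peaks nearest to Adh4 (r = 0.982) and Nmrk1 (r = 0.979). For Itga1 +5.0 kb they were peaks nearest to Ptger4 (r = 0.986) and Atp10a (r = 0.983), and for Itga4 -189.8 kb they were peaks nearest to Cd47 (r = 0.984) and Il10 (r = 0.983).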

How the data were processed

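The 29 peaks and the gene lists were chosen with earlier results of these data known. The authors trimmed reads with Cutadapt 3.4, aligned them with Bowtie2 2.2.9 to GRCm39, removed reads with no unique position and, with Picard 2.21.8, PCR duplicates, and called peaks per library with Genrich 0.6.1, of which those that recurred in a group were kept with ChIP-R. The deposited table holds raw counts per merged peak. The deposited lists hold a score, a signal and a q-value per peak of each group (a further column of p-values was not used here), and the q-value was used in 1 alternative. DESeq2 1.42.0 (R 4.3.3) was fitted on the counts over all 13527 peaks and 25 libraries with no term but the group, its default size factors and unshrunken fold changes, with adjustment by Benjamini-Hochberg over all peaks, the tool and thresholds being those of the study. The text names for each gene its promoter peak and the peak with the smallest likelihood ratio p, and up to 3 called peaks per comparison and direction, with others chosen after their values were seen. Library labels do not say that Naive or Sensitized replicates were separate animals, so p values measure the spread between libraries. No library was a copy of another of its group (lowest chi-square per degree of freedom 2.81), and pairs across groups were not compared. Subsets with the same number share a column prefix in the count table, which is not said to mark an animal. Their deviations from group means correlated at 0.103 to 0.572 for S+P C4 with C5 and 0.064 to 0.666 for S+P C4 with C7. They correlated at 0.522 to 0.771 for S+P C5 with C7 and 0.108 to 0.400 for N+P C1 with C5. Pairs with different numbers gave, in the same order, -0.685 to 0.44, -0.636 to 0.252, -0.483 to 0.137 and -0.334 to 0.027. The main fit had no term for this number. Alternatives were edgeR 4.0.16 with TMM, total counts, loess offsets, filters on low counts, fits on the compared groups only, a replicate block and leaving out libraries. In some alternative fits DESeq2 replaced its parametric dispersion trend by a local one. Sequences were read from GRCm39. Depth limits peaks with few reads most, and reads are not independent molecules.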

Additional observations from a re-analysis of the deposited data

Results flagged for a closer look

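Of 116 groups of 4 libraries, 1 per peak and group, 9 held a library whose gap to its neighbour exceeded Dixon's 95% critical value, and chance flags about 1 in 20 groups. The Cd44 promoter peak was lowest in S+P C4 1, with 133 normalized counts against 227 to 237 in the other 3 libraries. The Cd44 -46.9 kb peak was lowest in S+P C7 1, with 214 normalized counts against 458 to 468 in the other 3 libraries. The Cd44 -80.1 kb peak was highest in S+P C4 1, with 157 normalized counts against 52 to 66.2 in the other 3 libraries. The Cd44 -80.1 kb peak was highest in S+P C7 2, with 228 normalized counts against 131 to 139 in the other 3 libraries. The Itga1 +12.0 kb peak was highest in S+P C5 4, with 987 normalized counts against 855 to 863 in the other 3 libraries. The Itga4 -130.8 kb peak was highest in S+P C7 3, with 217 normalized counts against 133 to 138 in the other 3 libraries. The Itgal -10.9 kb peak was highest in Sensitized 1, with 313 normalized counts against 161 to 183 in the other 3 libraries. The Itgav promoter peak was lowest in S+P C4 3, with 833 normalized counts against 994 to 1007 in the other 3 libraries. The Itgb7 +6.6 kb peak was highest in S+P C4 4, with 303 normalized counts against 221 to 235 in the other 3 libraries. 

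The effect of the C5 state against the cells of non-pregnant mice differed between grafted and ungrafted mice at 6 peaks by the DESeq2 interaction term, though none reached the fold threshold, and the adjusted p was under 0.1 at 31.2% of all peaks. None of the 6 passed without Sensitized 3 and 4, where the differences were, in the order given here, 0.58, -0.37, 0.67, 0.40, -0.45 and -0.29. At the Itgal -8.1 kb peak the difference was 0.79 ± 0.25 (SE) on the log2 scale, with a DESeq2 adjusted p of 0.0186. This one was called without Sensitized replicate 1 (1.02, DESeq2 adjusted p = 7.99e-06). At the Itgav promoter the difference was -0.58 ± 0.20 (SE) on the log2 scale, with a DESeq2 adjusted p of 0.0303. At the Itga4 -27.4 kb peak the difference was 0.73 ± 0.29 (SE) on the log2 scale, with a DESeq2 adjusted p of 0.0563. At the Itgal promoter the difference was 0.57 ± 0.23 (SE) on the log2 scale, with a DESeq2 adjusted p of 0.0587. At the Itga4 +4.5 kb peak the difference was -0.52 ± 0.22 (SE) on the log2 scale, with a DESeq2 adjusted p of 0.0682. At the Itga1 +12.0 kb peak the difference was -0.30 ± 0.14 (SE) on the log2 scale, with a DESeq2 adjusted p of 0.0919.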

How the results depend on the processing

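Counts of the 29 peaks called are given for each alternative that moved them by more than 1.5 times. In N+P C5 against Naive the count was 0 and became 1 with total counts, with a low-count filter or with DESeq2's filter off, and 2 in a fit of the compared groups only (0 to 2 when 1 library was left out, 2 without Naive replicate 3). Of all peaks, 17 were called with total counts, 24 with either filter setting, 65 in the fit of the compared groups and 157 without Naive replicate 3. In S+P C4 against Sensitized it was 0 and became 5 without Sensitized replicates 3 and 4 (0 to 3 without 1 library, 3 without Sensitized replicate 3, 1 without Sensitized replicate 4 or S+P C4 replicate 1). In S+P C5 against Sensitized it was 2 and became 1 with loess offsets and 1 without Sensitized replicates 3 and 4 (2 to 3). In S+P C7 against Sensitized it was 2 and became 1 with loess offsets and 0 without Sensitized replicates 3 and 4 (0 to 3, with 0 without Sensitized replicate 3, Sensitized replicate 4 or S+P C7 replicate 2, and 1 without S+P C7 replicate 3). In S+P C5 against S+P C4 it was 4 and became 2 with loess offsets (3 to 5). In S+P C7 against S+P C5 it was 1 and became 0 with edgeR (0 to 1, with 0 without S+P C5 replicate 2, 3 or 4 or S+P C7 replicate 1, 3 or 4). In the interaction it was 0 and became 2 with loess offsets and 2 without Sensitized replicates 3 and 4, where 885 and 319 of all peaks were called (0 to 1, with 1 without N+P C5 replicate 3, Sensitized replicate 1 or Sensitized replicate 3). The cause was not tested. Over all 31 calls of a peak in a comparison, 432 values under alternatives kept the call in 401 and lost it in 31, with 0 turned in direction. Of the 12 calls with a loss, 9 were lost with loess offsets and 3 without Sensitized replicates 3 and 4. The replicate block gave 4 calls in S+P C5 against S+P C4, 1 in S+P C7 against S+P C5 and 0 in N+P C5 against N+P C1, as without it, and changed no count of calls.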
